A study of Mus musculus with 20 samples.

Results

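The 10 genes for subunits of neuronal nicotinic acetylcholine receptors were examined in whole dorsal root ganglia (DRG) of late mouse embryos. They were chosen by gene symbol, as Chrna2, Chrna3, Chrna4, Chrna5, Chrna6, Chrna7, Chrna9, Chrnb2, Chrnb3 and Chrnb4, and were 10 of the 29049 genes with a value in at least 1 library. The rule itself uses no measured value. The libraries came from untreated C57Bl6 embryos of both sexes at the late embryonic stage E18.5, with no transgene or deletion in any group. From every donor embryo (5 male, 5 female) the L4-5 ganglia (lumbar DRG) and the L6-S1 ganglia (sacral DRG) were sequenced as separate libraries, so that 20 libraries formed 4 groups of 5. Ganglia were not sorted, so each library mixes sensory neurons with glia and other cells of the ganglion.

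Nicotinic receptors are ion channels that open when acetylcholine binds, each built from subunits arranged in a ring. Chrna3, Chrna4, Chrna6 and Chrna2 encode alpha subunits that bind the agonist together with a beta subunit from Chrnb2 or Chrnb4, while Chrna5 and Chrnb3 encode accessory subunits that modify such receptors. Chrna7 and Chrna9 encode alpha subunits that can form channels without a beta subunit. Receptors that contain the Chrna3 and Chrnb4 products carry fast transmission in autonomic ganglia and are also found on sensory neurons, whereas receptors of the Chrna4 and Chrnb2 products predominate in the brain. The sacral DRG hold the visceral sensory neurons of the pelvic organs, and the study asked which transcripts differ between these ganglia and the lumbar ganglia, and whether spinal level or sex matters before birth.

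The genes lie in 7 places of the mm9 genome. Chromosome 9 carries Chrna5 (ENSMUSG00000035594, 54828687 to 54855586), Chrna3 (ENSMUSG00000032303, 54859150 to 54874366) and Chrnb4 (ENSMUSG00000035200, 54875963 to 54896351) side by side, with gaps of 3563 and 1596 bases. Chromosome 8 carries Chrnb3 (ENSMUSG00000031492, 28479183 to 28510201) next to Chrna6 (ENSMUSG00000031491, 28513686 to 28524416), 3484 bases apart. The single genes are Chrna4 on chromosome 2 (ENSMUSG00000027577, 180753085 to 180778251), Chrnb2 on chromosome 3 (ENSMUSG00000027950, 89557370 to 89568554), Chrna9 on chromosome 5 (ENSMUSG00000029205, 66326160 to 66368565), Chrna7 on chromosome 7 (ENSMUSG00000030525, 70243578 to 70357455) and Chrna2 on chromosome 14 (ENSMUSG00000022041, 66759797 to 66771785). All 10 are protein coding, and none overlapped another gene of the annotation on either strand.

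Because Chrna3 and Chrnb4 were the members that differed between spinal levels together, while Chrna4 and Chrnb2 did not pass the test, the 250 bases before the start of each of these 4 genes are shown. The sequences are from RefSeq in the GRCm38.p6 build, run 5′ to 3′ on the strand of the gene, and cover chr9:55026563-55026812 for Chrna3, chr9:55048545-55048794 for Chrnb4, chr2:181039178-181039427 for Chrna4 and chr3:89764633-89764882 for Chrnb2, each gene on the minus strand. Capitals mark the GC box (GGGCGG on either strand) and the E-box (CAGCTG, the same on both strands).
Chrna3: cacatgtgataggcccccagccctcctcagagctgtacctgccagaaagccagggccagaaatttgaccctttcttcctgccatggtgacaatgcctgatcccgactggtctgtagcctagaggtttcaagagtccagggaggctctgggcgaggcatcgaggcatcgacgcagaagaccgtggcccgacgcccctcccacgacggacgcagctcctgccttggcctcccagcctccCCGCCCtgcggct
Chrnb4: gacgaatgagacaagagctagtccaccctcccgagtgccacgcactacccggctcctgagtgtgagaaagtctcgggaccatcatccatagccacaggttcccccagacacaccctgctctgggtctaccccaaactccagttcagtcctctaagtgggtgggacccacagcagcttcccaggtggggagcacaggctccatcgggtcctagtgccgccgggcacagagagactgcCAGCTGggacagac
Chrna4: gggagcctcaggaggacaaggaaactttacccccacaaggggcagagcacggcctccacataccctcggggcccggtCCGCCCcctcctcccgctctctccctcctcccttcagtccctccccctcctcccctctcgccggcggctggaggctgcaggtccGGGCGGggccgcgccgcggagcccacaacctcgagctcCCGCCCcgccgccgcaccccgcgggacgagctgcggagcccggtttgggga
Chrnb2: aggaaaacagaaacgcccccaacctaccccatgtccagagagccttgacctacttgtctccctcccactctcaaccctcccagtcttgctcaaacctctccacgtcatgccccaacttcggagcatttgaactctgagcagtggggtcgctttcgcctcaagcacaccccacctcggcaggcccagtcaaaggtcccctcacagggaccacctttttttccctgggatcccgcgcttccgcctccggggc

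The Chrna3 window held 1 GC box match, and the Chrna4 window held 3. The Chrnb4 window held 1 E-box match and no GC box match, and the Chrnb2 window held neither. Of all 32851 promoter windows of this length, 32.7% held a GC box match and 13.0% an E-box match. RefSeq windows were matched for 7 of the 10 genes, with 8 entries in all. Both of the remaining single-start genes held 1 match, of the GC box in Chrna7 and of the E-box in Chrna9. Chrna5 has 2 annotated starts, and its window at chr9:54981238-54981487 held 4 GC box matches while the one at chr9:54980630-54980879 held none. A POU4 motif (ATNNNTAAT on either strand), found in 8.82% of all windows, was in none of the 8 entries. GC content ran from 40.0% in the Chrna5 window without a GC box match to 74.4% in the Chrna4 window. A match is a string of letters and not a measured binding site.

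Expression was read from the deposited log2 RPKM values, in which reads are scaled to gene length and library size, so that genes can be compared per length. Reads recovered from these values summed to 19606261 to 39678956 per library, and 2 mitochondrial ribosomal RNA (rRNA) genes took 17.83% to 61.05% of them. Of 13 listed symbols for sensory neuron markers, 11 passed the filter. The summed expression of the list was 791 to 1700 RPKM in lumbar and 398 to 1440 RPKM in sacral DRG. The list was lower in sacral DRG in 9 of 10 donors by its mean (-0.34 ± 0.38, SD over donors, log2), and Snap25 was its only gene that passed the test. Among Schwann cell and satellite glia genes, 6 of 10 were downregulated in sacral DRG (among them Fabp7, Mbp and Egr2). Of 7 fibroblast genes, 3 were upregulated (Col1a1, Col1a2 and Pdgfra), as was Col2a1 of the 2 tested cartilage genes. Beside these counts, 2.7% of all tested genes were upregulated in sacral DRG and 4.03% were downregulated. Skeletal muscle genes ranged from 36.1 to 517 RPKM in sum, with none of 10 differentially expressed in limma (2 at an unadjusted p under 0.05). No spinal cord marker passed the filter, and this list summed to 0.308 to 2.17 RPKM in lumbar and 0.394 to 1.97 RPKM in sacral DRG. Below the filter, Olig2, Lhx1 and Slc6a5 were each higher in sacral DRG in 9 of 10 donors. The other listed spinal cord genes with a value were counted as higher in 5 or 6 of 10. In these counts, libraries without reads held a small fill value that differed only by library scaling. Mnx1 had 0 to 2 reads in lumbar and 0 in all sacral libraries, so its count of 5 shows no higher sacral expression. Olig2 (0 to 5 lumbar and 0 to 24 sacral reads) and Chat (0 to 3 and 0 to 4) also had libraries without reads. Olig2, Lhx1, Mnx1 and Chat were named after their values were seen. The highest by mean expression were Stmn2 and Prph of the sensory, Pmp22 and Fabp7 of the glial, Col1a1 and Dcn of the fibroblast, Actc1 and Acta1 of the muscle, Col2a1 and Acan of the cartilage and Slc6a5 and Nkx6-1 of the spinal cord list. The part of these cell types in the differences below was not tested.

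Of the 10 subunit genes, 5 passed the filter of a mean of 1 RPKM in at least 1 group, namely Chrna3, Chrna4, Chrna7, Chrnb2 and Chrnb4. Each of these 5 had at least 63 reads in every library. Chrna5, Chrna6 and Chrnb3 had reads in all 20 libraries but stayed below the filter, with 5 to 235 reads per library. Chrna2 was blank in 15 libraries and reached 5 reads at most, and Chrna9 was blank in 16 and reached 7 reads at most.

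**Figure D1:**
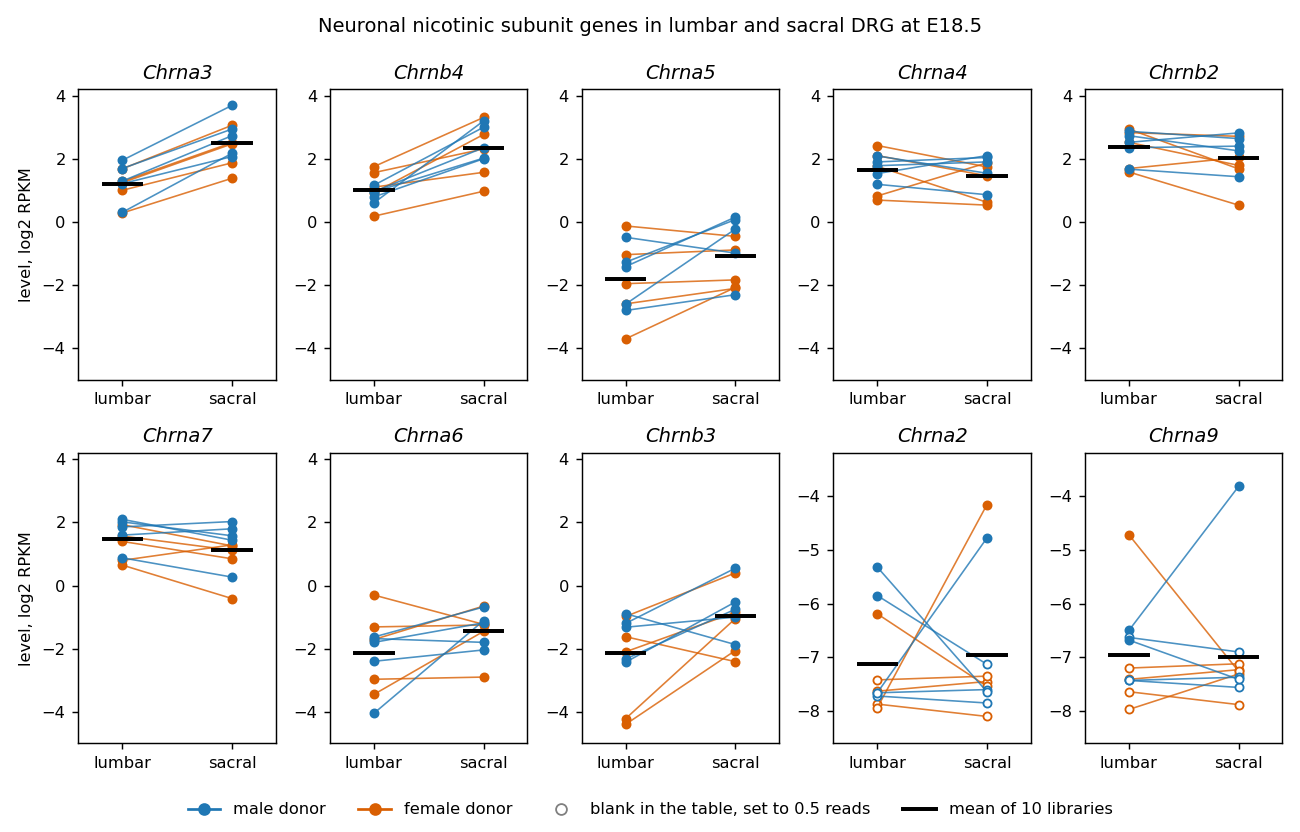
Expression of the 10 subunit genes (log2 RPKM, vertical axis) in lumbar and sacral DRG, with 1 point per library, a line joining the libraries of 1 donor (blue male, orange female), and a black bar at the mean of 10 libraries; open points are blanks set to 0.5 reads, and the axes of Chrna2 and Chrna9 cover a lower range. Every line rises for Chrna3 and Chrnb4, and lines go both up and down for Chrna4, Chrnb2 and Chrna7.

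Among the tested members, 2 of 5 were upregulated in sacral DRG (limma adjusted p at most 0.05), Chrna3 and Chrnb4, and 0 were downregulated, also at an unadjusted p under 0.05. Of all 14529 genes tested, 6.73% passed in either direction and 2.7% were upregulated. Each of the 10 donors had more of both transcripts in sacral DRG, a pattern found in 0.895% of tested genes. In the male donors every sacral library exceeded every lumbar library for both genes, as it did for 0.991% of tested genes. In the female donors the levels overlapped for both genes, and this share was computed for males only. In bulk tissue, fewer cells of a type and less RNA per cell cannot be told apart, and this holds for each difference below.

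Chrna3 expression in lumbar DRG of the male donors was 2.31, 3.23, 1.23, 3.87 and 2.44 RPKM in M1, M3, M5, M7 and M8. In sacral DRG of the same donors it was 4.21, 7.68, 4.49, 12.9 and 6.63 RPKM. Each male donor thus had more Chrna3 transcript at the sacral level, and the donor with the most in lumbar DRG, M7, also had the most in sacral DRG. In females Chrna3 was 3.20, 1.21, 1.99, 2.36 and 2.44 RPKM in lumbar DRG of F3, F7, F8, F9 and F10. In sacral DRG of these donors it was 8.32, 2.61, 3.66, 5.55 and 5.71 RPKM. F7 was lowest at both levels, and the sacral libraries of F7 and F8 lay below the highest lumbar library, so the levels overlapped although 8 of 10 sacral libraries exceeded every lumbar one. The difference was 1.30 ± 0.18 (SE, limma, log2), a 2.46-fold increase with a 95% interval of 0.92 to 1.68 (adjusted p = 3.14e-04). Between donors it ran from 0.87 in M1 to 1.87 in M5, an SD of 0.33, which was the smallest among the 10 members.

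Chrnb4, the beta subunit of the ganglionic receptor, was 1.73, 2.24, 1.93, 1.51 and 1.94 RPKM in lumbar DRG of M1, M3, M5, M7 and M8. It was 4.01, 8.0, 4.05, 9.17 and 5.12 RPKM in their sacral DRG, all above the lumbar values of males. In the females F3, F7, F8, F9 and F10 it was 3.36, 1.13, 2.14, 2.94 and 1.90 RPKM in lumbar DRG. In their sacral DRG it was 9.94, 1.95, 2.97, 4.96 and 6.80 RPKM. As for Chrna3, the sacral libraries of F7 and F8 were the lowest and fell within the lumbar range. The difference was 1.35 ± 0.20 (SE, limma, log2), a 2.55-fold increase with a 95% interval of 0.93 to 1.78 (adjusted p = 5.24e-04), and donors ranged from 0.47 in F8 to 2.60 in M7. Among the 14529 genes tested, Chrna3 ranked 32 and Chrnb4 ranked 43 by p-value.

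Chrna4 was measured at 1.61 to 5.35 RPKM in lumbar DRG (median 3.41) and at 1.44 to 4.30 RPKM in sacral DRG (median 3.12). The ranges of the levels overlapped in part, and 4 donors were higher and 6 lower in sacral DRG. The difference of -0.16 ± 0.20 (SE, limma, log2) did not pass the test (adjusted p = 0.637), with a 95% interval of -0.57 to 0.25. Donors spread from -1.13 in F10 to 1.05 in F8.

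Chrnb2, the usual beta partner of Chrna4, was the member with the highest mean in lumbar DRG, at 3.0 to 7.69 RPKM (median 5.73). In sacral DRG it was 1.44 to 7.08 RPKM (median 4.43), again with partial overlap, and it was lower in 7 of 10 donors. Its difference was -0.34 ± 0.19 (SE, limma, log2; adjusted p = 0.286), with a 95% interval of -0.75 to 0.06. With library weights the difference was -0.41 and passed (limma adjusted p = 0.0336, range over all settings and left-out donors 0.0336 to 0.984).

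Chrna7, the main subunit of receptors without a beta subunit, was 1.57 to 4.28 RPKM in lumbar DRG (median 3.0) and 0.753 to 4.08 RPKM in sacral DRG (median 2.42). The lowest library at both levels was that of F7, and 7 of 10 donors were lower in sacral DRG. The difference was -0.36 ± 0.19 (SE, limma, log2; adjusted p = 0.263), with a 95% interval of -0.76 to 0.05. The intervals of Chrna4, Chrnb2 and Chrna7 all lay below those of Chrna3 and Chrnb4.

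**Figure D2:**
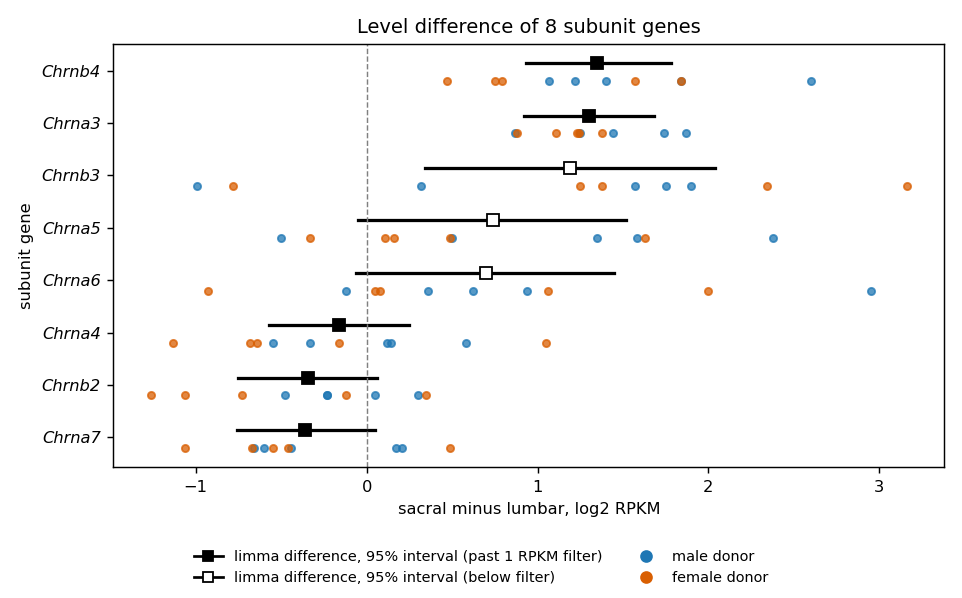
Sacral minus lumbar difference (log2 RPKM, horizontal axis) of 8 subunit genes, with the limma difference and its 95% interval as a square and bar (open squares for genes below the filter, fitted without it) and the 10 donors as points (blue male, orange female). Chrna3 and Chrnb4 lie at 1.30 and 1.35 with every donor above 0, while the 95% intervals of Chrna4, Chrnb2 and Chrna7 include 0.

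Chrnb3, an accessory subunit, was 0.0473 to 0.541 RPKM in lumbar DRG (median 0.279) and 0.189 to 1.46 RPKM in sacral DRG (median 0.526). It was higher in sacral DRG in 8 of 10 donors, all but M1 and F9, by 1.19 ± 1.32 (SD over donors, log2; exact sign-flip permutation test, two-sided, unadjusted p = 0.0254). In limma without the filter it did not pass (adjusted p = 0.15), where 1.75% of 29049 genes did. The spread between donors was wide, from -0.99 in M1 to 3.16 in F7, and rested on 6 to 77 lumbar reads per library.

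Chrna5, the accessory subunit encoded beside Chrna3, was 0.0765 to 0.914 RPKM in lumbar DRG (median 0.316) and 0.202 to 1.11 RPKM in sacral DRG (median 0.522). The levels overlapped, and F10 and M1, which had the highest lumbar values, were lower in sacral DRG. The other 8 donors were higher, and the mean over all 10 was 0.74 ± 0.95 (SD, log2; exact sign-flip permutation test, unadjusted p = 0.043). The difference did not pass in limma without the filter (adjusted p = 0.362).

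Chrna6, whose product forms agonist sites in dopaminergic and retinal neurons, was 0.0602 to 0.812 RPKM in lumbar DRG (median 0.297) and 0.134 to 0.638 RPKM in sacral DRG (median 0.422). The lowest and the highest library were both lumbar, from M7 and F3. The difference of 0.70 ± 1.12 (SD over donors, log2) was positive in 8 of 10 donors and did not pass (exact sign-flip permutation test, unadjusted p = 0.0664; limma without the filter, adjusted p = 0.372).

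Chrna2 and Chrna9 were at or near the limit of the reads. Chrna2 had 0 reads in 7 lumbar and 8 sacral libraries and summed to 6 reads in lumbar and 9 in sacral DRG. Chrna9, best known from hair cells of the inner ear, had 0 reads in 7 lumbar and 9 sacral libraries, and summed to 6 and 7 reads. With no read counted, as many as 3 could have been expected (95% confidence), so a difference of either gene was not detectable at this depth and no fold change is given.

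The order of the members by mean expression differed between spinal levels. In lumbar DRG, Chrnb2 (2.37 ± 0.53, SD, n = 10, log2 RPKM) was followed by Chrna4 (1.63 ± 0.57), Chrna7 (1.48 ± 0.53), Chrna3 (1.19 ± 0.55) and Chrnb4 (1.0 ± 0.45). Chrna5 (-1.80 ± 1.13), Chrna6 (-2.13 ± 1.11) and Chrnb3 (-2.15 ± 1.26) formed a lower tier, with Chrna9 and Chrna2 at the bottom. Within-donor gaps between neighbours exceeded their SD over donors only from Chrnb2 to Chrna4, from Chrnb4 to Chrna5 and from Chrnb3 to Chrna9. The other neighbours did not keep the same order in every donor, and their order was not tested. In sacral DRG, Chrna3 (2.49 ± 0.66) and Chrnb4 (2.35 ± 0.75) came first, followed by Chrnb2 (2.03 ± 0.70), Chrna4 (1.47 ± 0.59) and Chrna7 (1.12 ± 0.73). Chrnb3 (-0.96 ± 0.97), Chrna5 (-1.07 ± 0.95) and Chrna6 (-1.43 ± 0.67) again lay lower. Here the gap exceeded its SD from Chrnb2 to Chrna4, from Chrna7 to Chrnb3 and from Chrna6 to Chrna2. Chrnb4 was above Chrnb2 in 8 of 10 sacral donors, by 0.32 ± 0.46 (SD, log2), a gap smaller than its SD over donors that was not tested.

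The make-up of the subunit transcripts was also computed within each library, as a share of the summed RPKM of the 10 genes, a measure that does not depend on how libraries were scaled to each other. Chrna3 and Chrnb4 together made up 26.8% ± 4.18 (SD, n = 10) of the sum in lumbar DRG and 50.3% ± 7.39 in sacral DRG. The lumbar shares ran from 21.4% to 36.6% and the sacral shares from 37.4% to 58.0%, so the levels did not overlap. F8 gave both the highest lumbar and the lowest sacral share, and was the donor with the least change. Chrna4 and Chrnb2 together went from 50.6% ± 3.54 to 32.3% ± 6.08, lower in 10 of 10 donors. The share of Chrna7 went from 17.2% ± 2.35 to 10.4% ± 2.68, also lower in 10 of 10 donors, and that of Chrna5, Chrna6 and Chrnb3 from 5.37% ± 2.06 to 6.94% ± 1.92. The sum itself was 17.2 ± 5.20 RPKM in lumbar and 23.3 ± 9.21 RPKM in sacral DRG and was higher in 9 of 10 donors. Shares add to a fixed total, so a rise of one group lowers the others, and they are given as a description without a test. Chrna3 and Chrnb4 were also the 2 members called upregulated in sacral DRG, so their larger joint share restates that result.

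**Figure D3:**
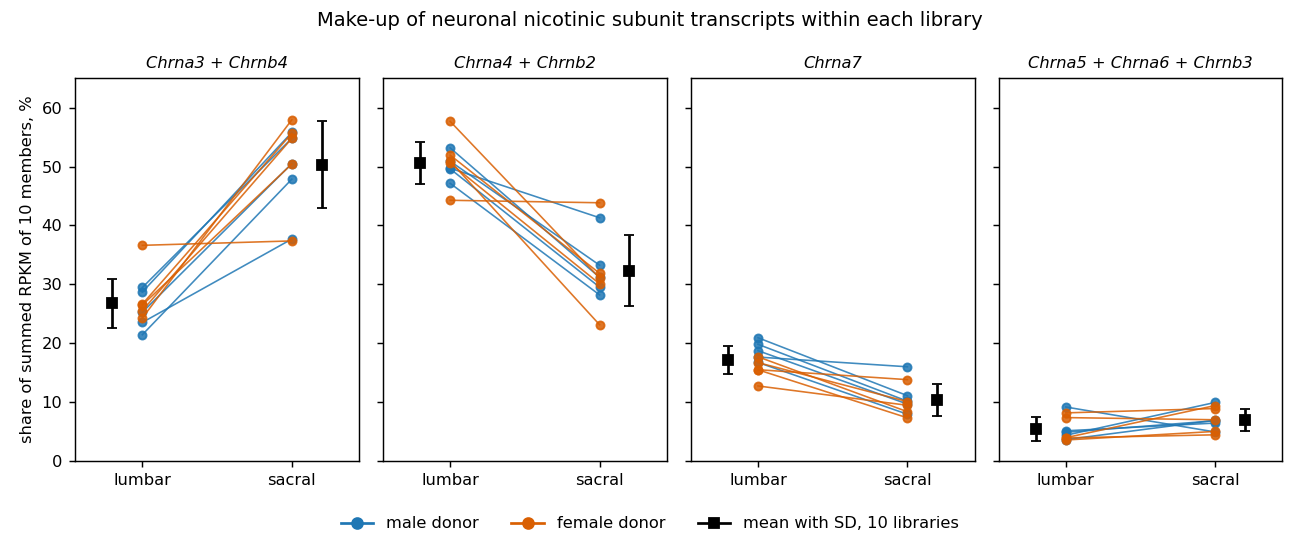
Share of the summed RPKM of the 10 subunit genes (percent, vertical axis) taken by Chrna3 with Chrnb4, Chrna4 with Chrnb2, Chrna7, and Chrna5 with Chrna6 and Chrnb3, per donor (lines, blue male, orange female) in lumbar and sacral DRG, with mean and SD of 10 libraries as black squares and bars. The share of Chrna3 with Chrnb4 was 21.4% to 36.6% in lumbar and 37.4% to 58.0% in sacral DRG, and F8 is the flat line.

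Genes of a cluster were compared with each other within donors. The level differences of Chrna3 and Chrnb4 did not differ detectably (-0.06 ± 0.55, SD over 10 donors, log2; exact sign-flip permutation test, adjusted p = 0.75 over 4 pairs). The difference of Chrna5 minus that of Chrna3 was -0.56 ± 0.82, and minus that of Chrnb4 it was -0.62 ± 0.91, and neither passed (exact permutation test, both adjusted p = 0.129). Chrnb3 and Chrna6 differed by 0.49 ± 1.41 (exact permutation test, adjusted p = 0.401).

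Whether donors with a larger difference in one gene had a larger difference in its neighbour was examined over the 10 donors. Pearson's r was 0.502 for Chrna3 with Chrnb4 (permutation p = 0.148, adjusted 0.296 over 4 pairs), with Spearman's rho of 0.418 (permutation p = 0.235, adjusted 0.313). For Chrna5 with Chrna3, r was 0.54 (permutation p = 0.116, adjusted 0.296) and rho was 0.685 (permutation p = 0.0342, adjusted 0.137). For Chrna5 with Chrnb4, r was 0.392 and rho 0.152 (permutation p = 0.271 and 0.687, adjusted 0.351 and 0.687), and for Chrnb3 with Chrna6, r was 0.334 and rho 0.455 (permutation p = 0.351 and 0.19, adjusted 0.351 and 0.313). Without the 2 donors farthest from the median of the first gene, r was 0.552, 0.426, 0.162 and 0.0856 in the same order, and no pair passed the adjustment.

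None of the tested genes around the clusters was upregulated. Of the 5 nearest protein-coding genes on each side of the chromosome 9 cluster, 8 were tested, 0 were upregulated in sacral DRG and 1 was downregulated (limma), beside 2.7% and 4.03% of all genes, and at an unadjusted p under 0.05 these counts were 0 and 2. Their median difference was -0.08 (log2, range -0.32 to 0.19), against a median of -0.05 over all tested genes. The downregulated gene was Etfa, an electron transfer flavoprotein subunit of mitochondria, at -0.32 ± 0.09 (SE, limma adjusted p = 0.0381). Psma4, a proteasome subunit 22850 bases before Chrna5, differed by -0.03 ± 0.09 (SE, limma adjusted p = 0.862), and Ube2q2, a ubiquitin-conjugating enzyme 100310 bases after Chrnb4, by -0.23 ± 0.07 (SE, limma adjusted p = 0.0548). On chromosome 8, 4 of 10 neighbours of Chrnb3 and Chrna6 were tested and 0 passed in limma, with a median of 0.08. At an unadjusted p under 0.05 there was 1, Unc5d, a netrin receptor, at 0.46 ± 0.19 (SE, limma adjusted p = 0.154). Psma4, Ube2q2, Etfa and Unc5d were named after their values were seen.

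**Figure D4:**
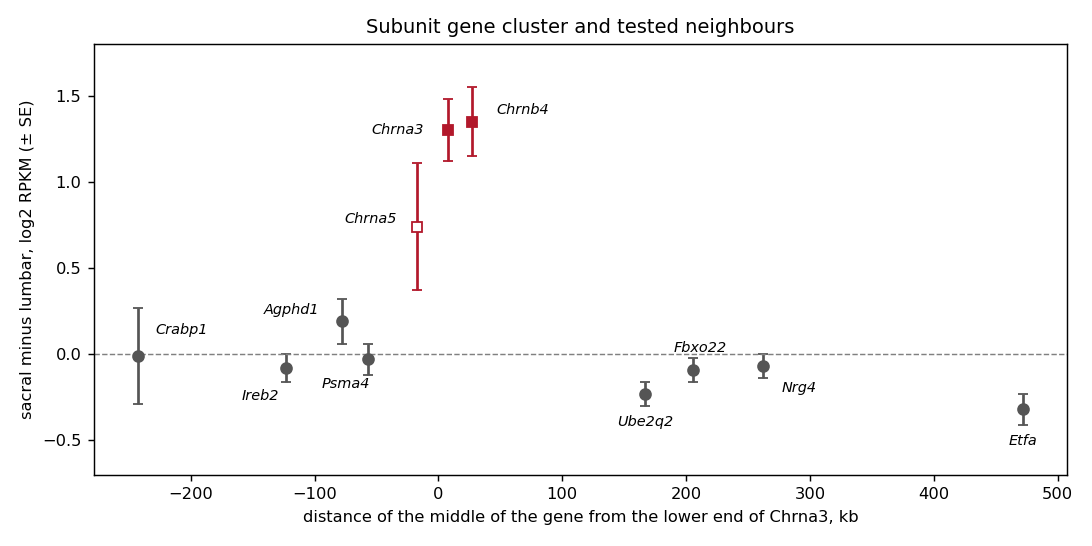
Sacral minus lumbar difference (log2 RPKM ± SE, vertical axis) of Chrna5, Chrna3 and Chrnb4 (red squares, Chrna5 open because it lay below the filter) and of the 8 tested neighbours on chromosome 9 (grey circles), placed by the distance of the middle of each gene from the lower end of Chrna3 in kb. The neighbours lie between -0.32 and 0.19, and Chrna3 and Chrnb4 at 1.30 and 1.35.

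Several members moved together across libraries of the same level. In lumbar DRG, F7, M5 and F8 were the 3 lowest libraries for each of Chrna3, Chrna4, Chrna7 and Chrnb2. These were also the lumbar libraries with the highest mitochondrial rRNA shares, at 48.84%, 61.05% and 43.25%, against 20.49% to 30.42% in the other 7. Chrnb4 did not follow this, with M7 and M1 next to F7 at its low end. In sacral DRG the highest shares were in M5 (49.49%), F7 (44.73%) and F9 (39.68%). These were the 3 lowest sacral libraries for Chrnb2 and Chrna7, but not for Chrna3, Chrna4 or Chrnb4. With the mitochondrial rRNA share as a covariate the level differences were 1.32 for Chrna3 and 1.37 for Chrnb4 (limma adjusted p = 1.67e-04 and 6.49e-04). Without donors F7, M5 and F8 they were 1.30 and 1.58 (limma adjusted p = 0.00159 and 4.72e-04).

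Expression was also expressed relative to the ganglion's sensory neuron genes, by centring each library on the mean of the 11 tested markers of that list. This moved the median difference of all tested genes by 0.34, from -0.05 to 0.29. The SD between libraries of a level fell for each tested member, from 0.62 to 0.21 for Chrnb2, from 0.64 to 0.29 for Chrna7, from 0.58 to 0.31 for Chrna4, from 0.61 to 0.38 for Chrna3 and from 0.61 to 0.44 for Chrnb4. Relative to these neuronal genes, the level differences of Chrnb2 (0.00), Chrna7 (-0.02) and Chrna4 (0.18) were near 0, and the sign of Chrna4 turned. Chrna3 and Chrnb4 were higher by 1.64 and 1.69, again in 10 of 10 donors.

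**Figure D5:**
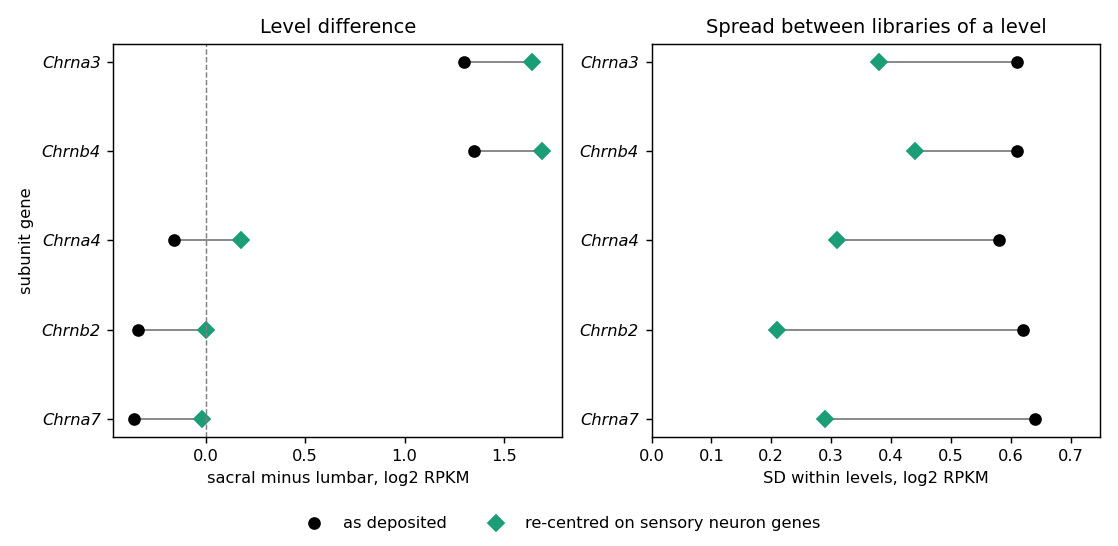
Left, sacral minus lumbar difference (log2 RPKM) of the 5 tested subunit genes as deposited (black circles) and after each library was centred on the sensory neuron genes (green diamonds); right, SD between libraries of a level on the same scales. Chrnb2 and Chrna7 move to 0.00 and -0.02, Chrna4 turns from -0.16 to 0.18, and the SD of Chrnb2 falls from 0.62 to 0.21, while Chrna3 and Chrnb4 move to 1.64 and 1.69.

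Because Chrna3 and Chrnb4 are known from autonomic ganglia, a list of 14 autonomic neuron genes was examined beside them. Only Th and Slc18a2, enzyme and vesicle transporter of catecholamine neurons, passed the filter, and neither was differentially expressed, also at an unadjusted p under 0.05 (0.30 ± 0.21 and 0.08 ± 0.09, SE, limma adjusted p = 0.402 and 0.597). The summed expression of the list was 6.76 to 11.4 RPKM in lumbar and 8.29 to 16.5 RPKM in sacral DRG, higher in 8 of 10 donors. Most of this sum came from Th and Slc18a2, with means of 2.29 and 1.83 log2 RPKM, and Npy was next at -1.85. The defining transcription factor Hand2 had 0 to 8 reads in lumbar and 0 to 7 in sacral libraries. Dbh, the noradrenaline-synthesising enzyme, had 0 to 10 and 1 to 35 reads. Chat, which makes acetylcholine, had 0 to 3 and 0 to 4. Slc6a2, the noradrenaline transporter, had 0 to 64 and 16 to 93, with more in sacral DRG in 8 of 10 donors by log2 RPKM. Th had 69 to 571 reads in lumbar and 106 to 797 in sacral libraries. Hand2, Dbh, Chat and Slc6a2 were named after their values were seen. The part of autonomic neurons in the differences of Chrna3 and Chrnb4 was not tested.

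Differences between the sexes were not found for the subunit genes. None of the 5 tested members differed between female and male embryos in lumbar DRG (limma adjusted p 0.81 to 0.96), in sacral DRG (0.392 to 0.662) or in the size of the level difference (0.995), and none had an unadjusted p at or under 0.05 in any of these tests, also without the filter. Of all tested genes, 0.33%, 1.01% and 0.0% passed in these comparisons. Chrna3 was 1.29 ± 0.63 (SD, n = 5, log2 RPKM) in male and 1.09 ± 0.52 in female lumbar DRG, and 2.72 ± 0.66 and 2.26 ± 0.65 in sacral DRG. The female minus male difference of Chrna3 in sacral DRG was -0.46 with a 95% interval of -1.13 to 0.21, and that of Chrnb4 was -0.33 (-1.07 to 0.41).

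The sacral increase of Chrna3 was 1.43 in males and 1.16 in females (limma adjusted p = 0.0107 and 0.0364), and that of Chrnb4 was 1.62 and 1.08 (limma adjusted p = 0.00869 and 0.0726). The difference between the sexes in this increase was -0.27 for Chrna3 (95% interval -1.04 to 0.50) and -0.54 for Chrnb4 (-1.39 to 0.30), and neither passed (limma interaction adjusted p = 0.995). All 5 male and all 5 female donors had more of both transcripts in sacral DRG.

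A list of 25 other symbols covered acetylcholine signalling, receptor assembly and related cation channels. Of these, 12 were tested, 2 were upregulated and 1 was downregulated in sacral DRG, where 2.7% and 4.03% of all tested genes were, with a median difference of 0.00 against -0.05 over all tested genes. Slc5a7, the high-affinity choline transporter of cholinergic terminals, was upregulated from 0.31 ± 0.43 to 1.36 ± 0.65 (SD, n = 10, log2 RPKM), by 1.05 ± 0.18 (SE, limma adjusted p = 0.00213) in 10 of 10 donors. Htr3a, a serotonin-gated channel subunit of the same Cys-loop superfamily, rose by 0.94 ± 0.21 (SE, limma adjusted p = 0.0115), and its partner Htr3b differed by 0.09 ± 0.19 (SE, limma adjusted p = 0.805). Htr3b was named after its values were seen.

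Among the proteins that bind or assemble nicotinic receptors, Lynx1, a membrane-anchored modulator of the Ly6 family, was downregulated from 5.06 ± 0.69 to 4.24 ± 0.45 (SD, n = 10, log2 RPKM), by -0.82 ± 0.19 (SE, limma adjusted p = 0.0142), and was lower in 9 of 10 donors. Ly6e, the other highly expressed Ly6 gene, differed by 0.04 ± 0.11 (SE, limma adjusted p = 0.833). The chaperones Ric3 and Tmem35 differed by -0.19 ± 0.14 and -0.62 ± 0.21 (SE, limma adjusted p = 0.421 and 0.0766). Ache and Bche, which break down acetylcholine, differed by 0.02 ± 0.18 and -0.27 ± 0.12 (SE, limma adjusted p = 0.952 and 0.173). Of the muscle subunits, Chrnb1 alone was tested, at -0.32 ± 0.30 (SE, limma adjusted p = 0.534), and Chrna10 was blank in every library. Ric3, Tmem35, Ache, Bche and Chrnb1 were named after their values were seen.

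The genes whose pattern was most like that of a member were found by Pearson correlation of log2 RPKM over the 20 libraries, with each donor's mean removed. With that mean removed, both libraries of a donor mirror each other. The r therefore rests on 10 donor differences and largely on their shared sign. The libraries share the spinal level contrast and the scaling of each library, so the values are a description. For Chrna3 they were Cacna1e, a voltage-gated calcium channel subunit (r = 0.971), and Kctd12, an auxiliary subunit of GABA receptors, with Gm17446, which had the same r of 0.965 and the same difference. Chrnb4 ranked 11 for Chrna3 with r = 0.936, and Chrna3 ranked 3 for Chrnb4 after Pfas, of purine synthesis (r = 0.949), and Gpc6, a glypican (r = 0.939).

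Chrna5 was most like Elk3 (r = 0.902), Spon1 (r = 0.902) and Rab7l1 (r = 0.882), and its r with Chrna3 and Chrnb4 was 0.713 and 0.702. Chrna7 was most like Mrgprx1, a receptor of itch neurons (r = 0.969), Arhgef10l (r = 0.967) and Grik1, a kainate receptor subunit (r = 0.963). Its r was 0.841 with Chrnb2 and 0.71 with Chrna4, and -0.651 with Chrna3 and -0.532 with Chrnb4. Of these like genes, Cacna1e, Kctd12, Gm17446, Pfas, Gpc6 and Spon1 were themselves upregulated in sacral DRG. Elk3 (0.14, limma adjusted p = 0.341) and Rab7l1 (0.63, limma adjusted p = 0.057) did not pass, nor did Mrgprx1, Arhgef10l and Grik1 (-0.50, -0.29 and -0.33, limma adjusted p = 0.173, 0.164 and 0.187). The correlations were taken over both spinal levels, so a gene like Chrna3 or Chrnb4 carries their level difference by construction. The negative r of Chrna7 with Chrna3 and Chrnb4 likewise carries level differences of opposite sign (-0.36 against 1.30 and 1.35). The level difference of Chrna7 did not pass (limma adjusted p = 0.263).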

How the data were processed

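The authors amplified total RNA to cDNA, made transposase-tagged libraries, aligned reads to mm9 with Subread (uniquely mapped reads), counted them over Ensembl 67 genes with featureCounts, applied TMM scaling (edgeR 3.12.1) and voom (limma 3.26.9), and deposited the values as log2 RPKM. Whether counting used strand is not given in the sources used here. Every library had the same median (0.930302 over genes with a value). With GENCODE M1 exon lengths, 98.27% of values were whole reads within 0.05 reads. Blanks were read as 0 reads and set to 0.5 reads. Limits from counts cover counting error only.

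The log2 values were tested with limma 3.58.1 (R 4.3.3, statmod 1.5.0) on 20 libraries, with a mean for each of 4 groups, donor as a random block through duplicateCorrelation (consensus correlation 0.342) and a variance trend. The study's voom fit needs counts, so limma on log2 values is the main test, and voom on recovered reads an alternative. Genes with a group mean of 1 RPKM were tested (14529), with Benjamini-Hochberg adjustment over all of them and a threshold of 0.05. Members below the filter were tested by exact sign flips of the 10 donor differences (SciPy 1.17.1, smallest p 0.00195), unadjusted, and correlations by 100000 permutations. The fit was tested on simulated data. Pairing comes from the donor-matched design: both libraries of a donor are from 1 embryo, with correlations of their deviations from group means of -0.166 to 0.677. Replicates are separate embryos, and litters are not given in the sources used here.

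The members and lists were chosen with earlier results of these data known. Every member is named. Of the other lists the genes past the threshold and the 2 of highest mean were to be named (some are not reported here), and for likeness the 3 genes of highest correlation. Alternatives covered filters, blanks, pseudocount, block, weights, voom, scaling, the mitochondrial rRNA covariate and left-out donors. Leaving out 3 donors together was chosen after seeing the data.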

Additional observations from a re-analysis of the deposited data

Results flagged for a closer look

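In 36 groups of 5 libraries of a member with more than 3 reads, the highest or lowest library was compared with the others by Dixon's criterion, which chance passes in about 1 of 20 groups. It marked 5 libraries. Chrna7 in sacral DRG of female F7 was at -0.41 log2 RPKM, apart below the other females, and F7 was also the lowest sacral library for Chrna3, Chrna4, Chrnb2 and Chrnb4. Chrna2 in sacral DRG stood apart on the high side at -4.78 log2 RPKM in male M1 (4 reads) and -4.16 in female F9 (5 reads), where the other sacral libraries had 0 reads. Chrna9 stood apart on the high side at -3.82 log2 RPKM in sacral DRG of male M3 (7 reads) and -4.72 in lumbar DRG of female F9 (4 reads), where the other libraries of these groups had 0 reads. In these Chrna2 and Chrna9 groups the other libraries were blanks set to the same fill, so their values differed only by library scaling. A few reads were then enough to stand apart. The rate of 1 of 20 does not apply to these groups, and no conclusion is drawn from their marks.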

How the results depend on the processing

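Chrna3 and Chrnb4 passed for the level difference in each of 23 other fits, 10 of them without 1 donor (limma). Leaving out a donor gave 1.25 to 1.37 for Chrna3 and 1.23 to 1.43 for Chrnb4, and the other fits 1.01 to 1.64 and 1.04 to 1.69. The low ends came from log2(RPKM + 1) and the high ends from centring on sensory neuron genes. Both are on other scales than the deposited values. In female donors alone Chrnb4 was 1.08 (limma adjusted p = 0.0726). With library weights Chrnb2 was -0.41 (limma adjusted p = 0.0336), which made 3 members called. Without the donor block, Chrna3 and Chrnb4 kept their differences (limma adjusted p = 0.0132 and 0.0119) and no call of a tested member changed, though 154 of all tested genes passed in place of 978. Other counts were 509 without a filter, 3460 with library weights, 2930 after centring on sensory neuron genes and 404 to 1608 without 1 donor. The centring changed the upregulated share of calls from 40.1% to 95.5%. For sex, the mitochondrial rRNA covariate gave 228 genes in lumbar and 705 in sacral DRG in place of 48 and 147, with 0 members called.

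Results below the filter rested on few reads and depended more on the test. Chrna5 was 0.74 in limma without a filter (adjusted p = 0.362), with a filter of 1 CPM (adjusted p = 0.213) and without the donor block (permutation p = 0.133), and 0.55 to 0.87 without 1 donor (exact permutation p 0.0195 to 0.0859). Chrnb3 was 1.19 in both limma fits (adjusted p = 0.15 and 0.0685) and 0.97 to 1.43 without 1 donor (exact permutation p 0.0117 to 0.0508). Chrna6 was 0.45 to 0.88 without 1 donor (0.88 without F3, exact permutation p = 0.0156). The gap of Chrna5 to Chrnb4 was -0.78 to -0.45 without 1 donor, and passed without F9 (exact permutation, adjusted p = 0.0312). At 0 to 7 reads, Chrna2 and Chrna9 could not be compared.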
